A study of Drosophila melanogaster with 24 samples.

Results

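Whole larvae of the first instar whose canonical histone H3 carries arginine in place of lysine 9 (H3.2-K9R) were compared with larvae whose canonical H3 is wild type (HWT), by RNA sequencing. Every row of the authors' deposited table of this comparison was used, 10253 loci on the genome build dm6, and the comparison rests on 6 of the 24 libraries of the series, 3 of H3.2-K9R and 3 of HWT. In both genotypes the endogenous canonical histone genes are deleted and a transgene with 12 copies of the histone gene unit stands in for them. The units of the H3.2-K9R larvae encode K9R and those of the HWT larvae do not. The labels give no change in the H3.3 genes, which encode the replacement variant of H3, in either genotype, so that a source of H3 with lysine 9 remained in both. Neither the sex of the larvae nor whether the replicates were separate cultures or collections of larvae is given in the labels, so p-values refer to the spread among these libraries, which may be technical. In RNA of whole larvae, fewer cells of a type and less RNA per cell cannot be told apart.

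Lysine 9 of H3 is the residue whose methylation marks constitutive heterochromatin. Di- and trimethylated lysine 9 is bound by Heterochromatin Protein 1, and in flies both are concentrated in the repeat-rich sequence around the centromeres, on the Y and on chromosome 4. Transposons, satellite repeats and the clusters that give rise to piRNAs lie largely in such chromatin, as do some protein-coding genes, several of which are known from fly genetics to need it for their expression. Arginine keeps the positive charge of the residue and cannot be methylated by the enzymes that act on lysine.

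Larvae with H3.2-K9R had more RNA from heterochromatic sequence, mostly from loci with no gene name, while most loci of the arms moved little. In the authors' deposited table, 8123 loci had an adjusted p-value and are called tested here, and their median log2 fold change was −0.01, with quartiles at −0.15 and 0.12. The authors' DESeq2 Wald test, a two-sided test of the fold change over its standard error, called 288 loci at an adjusted p-value under 0.05, which is 3.55% of those tested. Of these, 247 were higher in H3.2-K9R (3.04%) and 41 were lower (0.505%). At an unadjusted p under 0.05 the test counted 7.92% of the 10072 loci with a p-value, 4.5% higher and 3.43% lower. Called changes upward were the larger ones: 153 of the 247 higher loci had a log2 fold change of at least 1, and 9 of the 41 lower loci had one of −1 or less. Of the 32 loci with a log2 fold change of at least 2, 31 had no gene name, and the other was Marf1. A locus has a name here when it shares at least 50% of its joint span with a RefSeq gene, which held for 69 of the higher loci and 39 of the lower ones. Names were matched only on the arms, chromosome 4, the Y and the mitochondrial genome. The 78 higher loci on scaffolds, among the 178 higher loci without a name, therefore could not have one. The table holds no value of a single library, so each value below is a log2 fold change of H3.2-K9R over HWT followed by ± and its standard error as the authors gave it, and a level is a mean normalized count over the RNA libraries.

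**Figure D1:**
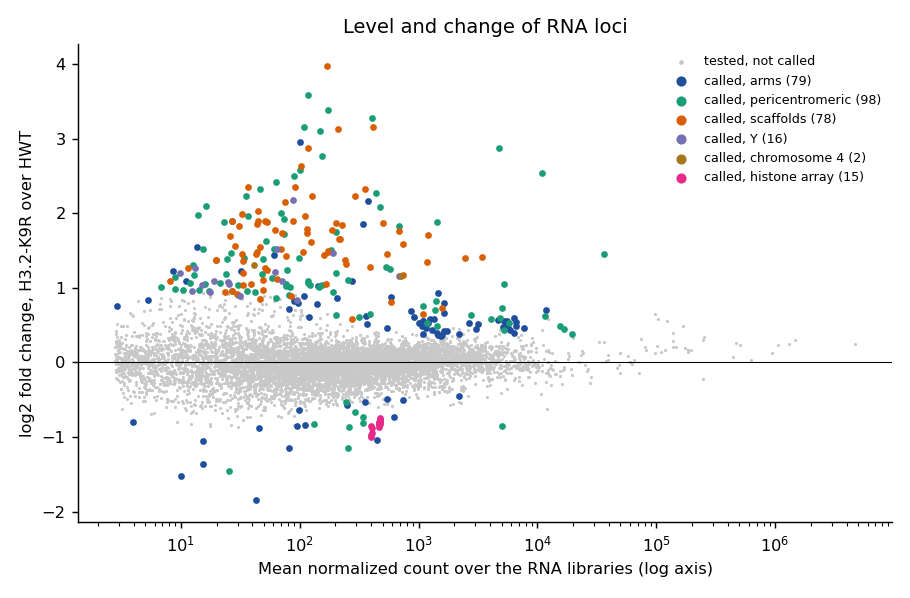
Each point is a tested locus, with its mean normalized count on a log axis across and its log2 fold change of H3.2-K9R over HWT up; colours mark called loci by genome location, with their number in the legend. Loci on scaffolds and in pericentromeric sequence reach 3.98 and 3.59, and called loci of the arms are mostly smaller and lie on both sides of 0.

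Location divided the calls. Scaffolds are assembled pieces with no place on an arm, and gene names were not matched there. On them 78 of 161 tested loci were higher in H3.2-K9R (48.4%) and none was lower, with a median of 0.83. On the Y 16 of 55 tested loci were higher (29.1%) and none was lower. In pericentromeric sequence of the arms 89 of 356 tested loci were higher (25%) and 9 were lower (2.53%). On the rest of the arms 62 of 7379 tested loci were higher (0.84%) and 17 were lower (0.23%). On chromosome 4, much of which is packed as heterochromatin although it is rich in genes, 2 of 67 tested loci were higher (2.99%), both without a name, and the 61 tested loci with a name held no call and had a median of 0.07. For those 61 named loci DESeq2's Wald test had 1 higher and 1 lower at an unadjusted p under 0.05.

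The level of a locus bears on whether it can be called, so the shares were also read within quartiles of the mean count, whose limits were 52.0, 204 and 658. In pericentromeric sequence, from the lowest quartile to the highest, 21.6%, 34.9%, 13.6% and 29.2% of tested loci were higher in H3.2-K9R. On the arms the shares in the same quartiles were 0.393%, 0.479%, 0.418% and 2.1%. Scaffold loci were called higher in 45.3%, 68.4%, 66.7% and 23.7% in the same order. The pericentromeric share was above that of the arms in each quartile.

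**Figure D2:**
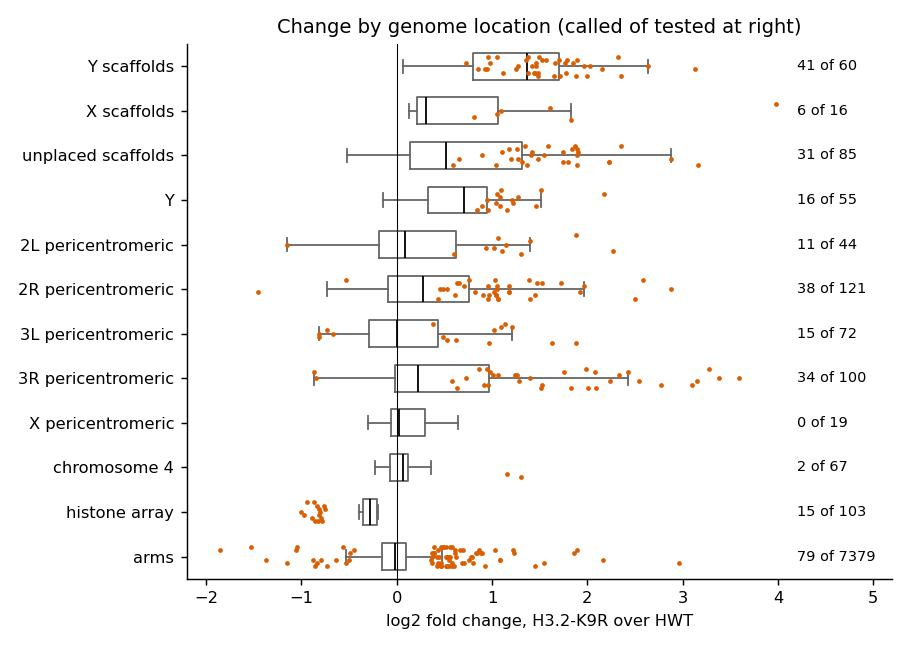
Boxes give the median and quartiles of the log2 fold change of H3.2-K9R over HWT of tested loci in each location, whiskers reach to 1.5 times the box length, orange points are called loci, and the numbers at the right are called of tested loci. Scaffolds assigned to the Y have the highest median, 1.37, and pericentromeric loci of the X hold no call.

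Among the scaffolds, those assigned to the Y moved most. All 60 of their tested loci were above 0, 41 of them were called higher (68.3%), and their median was 1.37. Of the unplaced scaffolds 31 of 85 tested loci were higher (36.5%, median 0.52), and of those assigned to the X 6 of 16 were (37.5%, median 0.31). Levels differed widely: the median mean count was 117989 for scaffolds assigned to the X, 116 for unplaced ones and 60.1 for those assigned to the Y. The largest fold change of the authors' deposited table, 3.98 ± 0.25 with an adjusted p of 7.1e-56, belonged to positions 23240 to 25339 of a scaffold assigned to the X, at a mean count of 170. An unplaced scaffold rose by 3.16 ± 0.18 at positions 2 to 6045 and another by 2.87 ± 0.29 at positions 9 to 3491, in the authors' deposited table. A scaffold assigned to the Y rose there by 3.13 ± 0.23 at positions 9731 to 12167, and another by 2.64 ± 0.24 at positions 2 to 1046. Scaffolds are rich in repeats, and how reads that map to several places were counted is not given in the sources used here, so a value may belong to several copies of a sequence.

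On the assembled Y, calls were found in loci with and without a gene name. Of 24 tested loci without a name 10 were higher (41.7%, median 0.81), against 6 of 31 with one (19.4%, median 0.49). The largest change on the Y in the authors' deposited table, 2.17 ± 0.28, was at 3051297 to 3054699, followed by 1.52 ± 0.27 at 3245871 to 3248170 and 1.47 ± 0.30 at 859022 to 859455. An unnamed locus within kl-3, a dynein gene of the male germline (489198 to 561256), rose by 1.15 ± 0.17 with an adjusted p of 7.7e-10 at a mean count of 682 in the authors' deposited table; it shares 31.8% of the joint span with that gene. Among the named ones were 5 copies of Su(Ste), the repeated noncoding genes that give rise to piRNAs against the Stellate genes of the X in the male germline. All 25 Su(Ste) copies were tested, 23 were above 0 and their median was 0.61. Copies called higher in the authors' deposited table were Su(Ste):CR42407 at 1.22 ± 0.26, Su(Ste):CR42419 at 1.09 ± 0.30, Su(Ste):CR45794 at 1.05 ± 0.30, Su(Ste):CR41533 at 0.95 ± 0.30 and Su(Ste):CR42424 at 0.89 ± 0.28. These copies are similar in sequence and may share reads, so they may not be separate observations, and the calls of the last 2 are lost when p-values are adjusted over all loci that have one. The 6 Stellate copies measured on the X had mean counts too low to be tested. ORY, a Y gene of the male germline, was higher at 1.08 ± 0.30 with an adjusted p of 0.0129 in the authors' deposited table. The other Y genes of the list with an adjusted p were kl-2 at 0.17 ± 0.30, Ppr-Y at 0.28 ± 0.31 and FDY at 0.11 ± 0.19 in that table, and none of these 3 was called, while all 4 tested genes of the list were above 0. Those 4 had a median mean count of 18146, against 204 over all tested loci, while ORY had 24.9. Which sequence within these genes the reads come from was not examined, so the values may not be those of the gene transcripts. The RNA lncRNA:roX2, of dosage compensation and made in males, was chosen after its value was seen. It stood at −0.15 ± 0.24 with an adjusted p of 0.953 in the authors' deposited table. The 5 tested genes of dosage compensation, roX2 among them, ran from −0.27 to 0.08. The share of males is not known, and the part of a different share of males in these Y values was not tested.

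Within pericentromeric sequence the arms differed in their shares. On 3R 32 of 100 tested loci were higher (32%), on 2R 36 of 121 (29.8%), on 2L 10 of 44 (22.7%) and on 3L 11 of 72 (15.3%). Of the 32 on 3R, 15 were matched to the gene Pzl and 16 lay within the gene Myo81F. Neighbouring loci of a gene may be parts of the same transcript, so the share on 3R rests largely on these genes. On 3L 4 loci were lower, the most of any arm. On the X none of 19 was called, their median was 0.03, and DESeq2's Wald test had 2 higher and 0 lower at an unadjusted p under 0.05. Differences between arms were not tested.

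The share of higher loci was lower in the last 1 Mb before the border than further towards the centromere. Counted over all arms in steps of 1 Mb from the pericentromeric border, 35 of 81 tested loci were higher between 2 and 1 Mb on the centromere side (43.2%), and 11 of 143 in the last 1 Mb before the border (7.69%). On the arm side the share was 3.04% in the first 1 Mb, 1.99% in the second and 0.923% in the third, and 0.647% from 5 Mb to the end of the arm. On 3R the step lay on the centromere side of the border. Between 2 and 1 Mb on that side 15 of 23 tested loci were higher, against 1 of 49 in the next 1 Mb and 1 of 71 in the first 1 Mb of the arm. Those 15 were all matched to the gene Pzl and may be parts of the same transcript, and they are among the 35 counted over all arms. Where the border is drawn sets the size of the pericentromeric share. With borders 1 Mb nearer the centromere it was 36.6%, and with borders 1 Mb into the arms it was 16.4%, while the share on the arms was 0.97% and 0.769% in the same order.

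**Figure D3:**
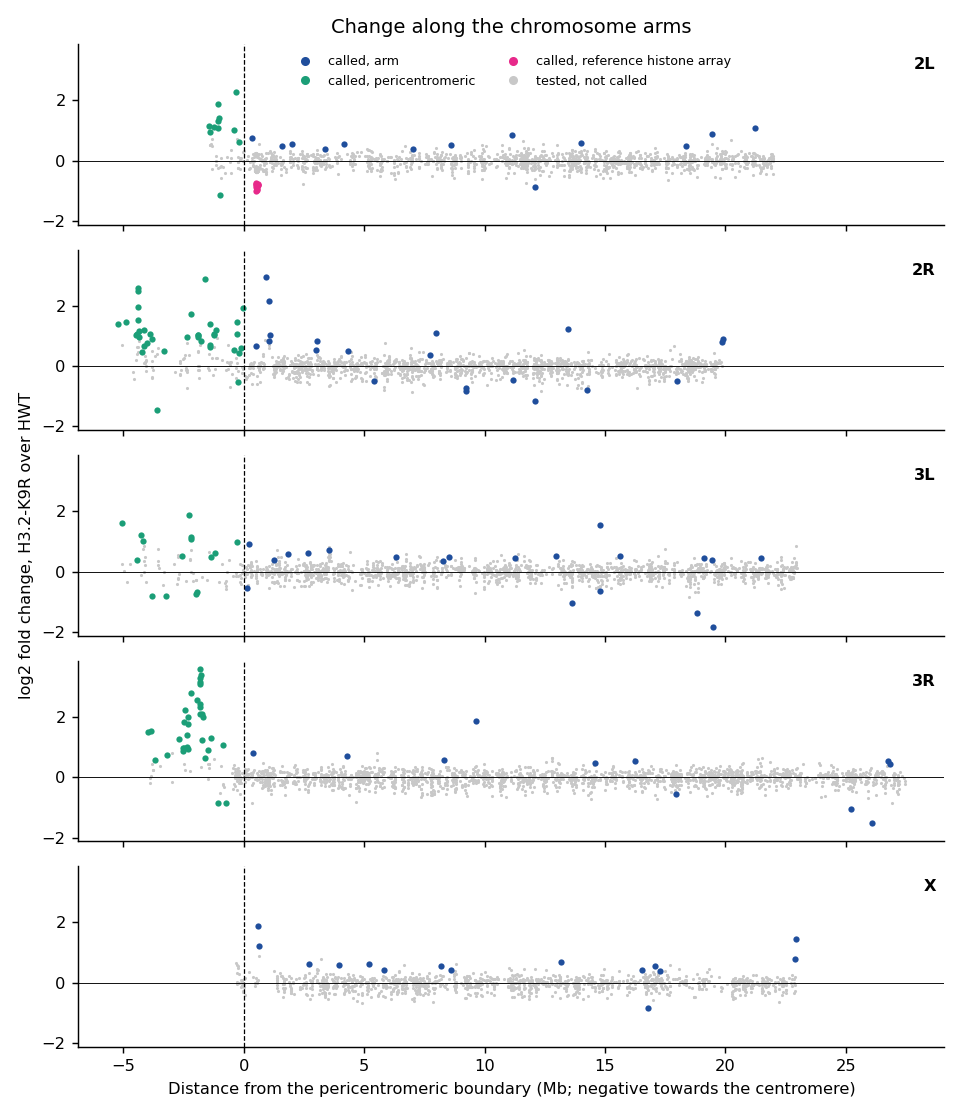
For each arm, tested loci are placed by their distance in Mb from the pericentromeric border (dashed line, centromere side to the left) and by log2 fold change of H3.2-K9R over HWT; coloured points are called. Higher loci crowd on the centromere side of 2L, 2R, 3L and 3R, and a group on 3R reaches 3.59.

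Many loci that rose in pericentromeric sequence lay side by side. Of the 89 higher loci 60 (67.4%) stood in 18 runs of neighbouring tested loci that were all called higher. On the arms 5 of the 62 higher loci (8.06%) stood in runs, but called loci are neighbours more often where more loci are called, 25% in pericentromeric sequence and 0.84% on the arms, and clustering beyond that was not tested. Every one of the 41 lower loci stood alone among its tested neighbours. Of these, 15 were nearly identical His3 copies of the reference histone gene cluster on 2L, which may share reads. They lie there among copies of other histone genes, which were not called. The longest run held 10 loci over 408 kb of 3R, from 2405365 to 2813562, with log2 fold changes from 2.09 to 3.59, and a run of 6 on 2R lay within 16.8 kb, from 1008517 to 1025273, with values from 0.97 to 2.59. Loci without a gene name carried most of this: 76 of 197 were higher (38.6%, median 0.50), against 13 of 159 with a name (8.18%, median −0.03). Of the 76, 37 overlapped no gene, 7 overlapped a gene in part and 32 lay wholly inside the span of one, 16 of these in Myo81F and 14 in Pzl.

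Pzl and Myo81F are long neighbouring genes of 3R, and the calls inside them are described in order along the chromosome. Pzl, known as Piezo-like and related to mechanically gated channels, spans 2554162 to 3263582. Of 23 loci matched to it 21 were tested, 15 were higher and none was lower, with a median of 1.98. Among the 15 is 1 that reaches past the start of the gene. This locus, at 2554124 to 2769628, had a mean count of 10883 and rose by 2.54 ± 0.14, with the smallest adjusted p of the authors' deposited table, 1.3e-70. Next to it, between 2770319 and 2813562, lay 9 loci, of which 8 were called and the other had no p-value. In the authors' deposited table those called included 3.59 ± 0.26 at 2770319 to 2774290, 3.38 ± 0.22 at 2809492 to 2813562 and 3.27 ± 0.22 at 2786193 to 2789917. The loci at 2794267 to 2796751 and 2790784 to 2793924 stood at 3.15 ± 0.25 and 3.10 ± 0.21 in the authors' deposited table. Further along, changes were smaller: the locus at 2940921 to 3031536, with a mean count of 2747, rose by 0.64 ± 0.14 in that table. In the last stretch a group of 5 loci from 3120267 to 3148235 held no call, and the locus at 3170469 to 3263573 rose by 1.28 ± 0.22 in that table. Because neighbouring loci of 1 gene may be parts of the same transcript, their number is not a number of independent changes. Myo81F, a myosin gene at 567076 to 2532932, held 28 tested loci, 16 of them higher and none lower, with a median of 0.83 and a highest value of 2.77.

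**Figure D4:**
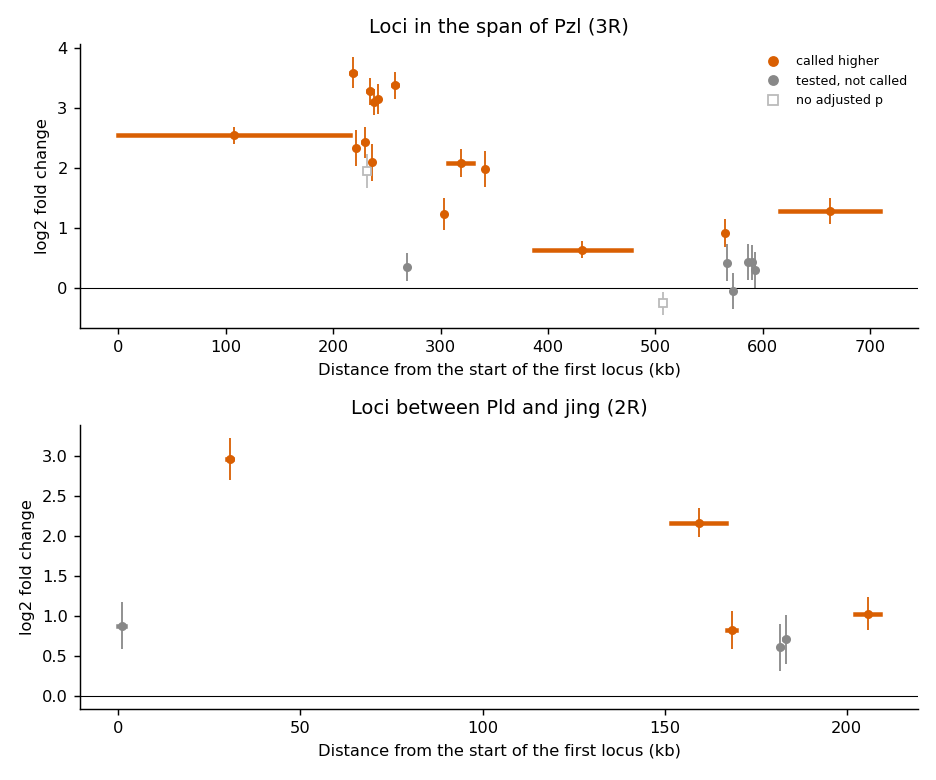
Loci in the span of Pzl (top) and between Pld and jing (bottom), placed by distance in kb from the start of the first locus and by log2 fold change of H3.2-K9R over HWT; points are locus centres, thick lines the extent of each locus, and vertical lines the authors' standard error. In Pzl the highest values, up to 3.59, lie in its first part, and between Pld and jing all 7 loci are above 0.

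Named pericentromeric genes moved in both directions. Marf1, which encodes an RNA-binding regulator of meiosis in females (2L, 22308666 to 22368796), was higher at 2.27 ± 0.19, with an adjusted p of 3.4e-29, and DIP-lambda, a cell-surface immunoglobulin protein (2R, 326779 to 718433), at 1.45 ± 0.13, with an adjusted p of 1.5e-25, both in the authors' deposited table. The noncoding lncRNA:CR42646 stood at 1.93 ± 0.27 and lncRNA:CR43242 at 1.07 ± 0.31 in the same table, both called higher. Maf1, a repressor of RNA polymerase III, was higher at 1.06 ± 0.17, and its neighbour l(2)41Ab at 0.76 ± 0.12 in the authors' deposited table. Snap25, a protein of synaptic vesicle fusion (3L, 24061914 to 24299207), rose by 0.62 ± 0.12, and the gene next to it, nvd, the enzyme of the first step of ecdysone synthesis, by 0.49 ± 0.11 in that table. Smaller called rises in the authors' deposited table were those of d4 at 0.61, the ionotropic receptors Ir40a at 0.60 and Ir41a at 0.52, CG17684 at 0.49 and Nipped-A, a subunit shared by histone acetyltransferase complexes, at 0.43.

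The called falls among named pericentromeric genes were fewer, 7 against 13 rises, and 1 of them went beyond −1. Cht10, a chitinase (2L, 22999564 to 23025915), fell by 1.15 ± 0.20 with an adjusted p of 3.3e-07 in the authors' deposited table. On 3R CG41099 stood at −0.87 ± 0.17 and Parp1, the poly(ADP-ribose) polymerase (3461351 to 3587054), at −0.85 ± 0.18 with an adjusted p of 2.1e-04, in the authors' deposited table. Parp1 lies on the far side of spok from Pzl, whose loci rose. On 3L CG40160 stood at −0.82 ± 0.15, ND-AGGG, a subunit of respiratory complex I, at −0.73 ± 0.20 and CG40472 at −0.67 ± 0.19 in that table. Atf6, a transcription factor of the endoplasmic reticulum stress response, stood at −0.53 ± 0.17 in the authors' deposited table with an adjusted p of 0.0488, and its call is lost when p-values are adjusted over all loci or values are centred on the median. The remaining 2 lower loci had no name, with −1.45 on 2R at 1782298 to 1783648 in the authors' deposited table as the larger. Of the 32 tested protein-coding genes in the list of heterochromatic genes, 9 were higher (28.1%) and 5 lower (15.6%), with a median of 0.03. Over all tested loci the shares were 3.04% and 0.505%. The list was chosen with earlier results of these data known. It holds Marf1, Maf1, DIP-lambda, l(2)41Ab, Parp1, CG40160 and CG41099, so these shares add nothing to the calls of those genes. The list also holds light (lt) at −0.18 ± 0.15 and concertina (cta) at −0.23 ± 0.15 in that table, which were not called and which stand as examples of genes long studied for their dependence on heterochromatin, chosen after their values were seen.

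Outside pericentromeric sequence, the largest changes of the arms fell in an interval of 2R between Pld and jing (6255267 to 6502005), known as the 42AB cluster, a main source of piRNAs in the ovary. All 7 of its loci were tested and above 0, with unadjusted p-values under 0.05, 4 were called higher, and none has a gene name. In the authors' deposited table the called loci stood at 2.96 ± 0.26 (6297377 to 6298754), 2.17 ± 0.18 (6419152 to 6434449), 0.83 ± 0.24 (6434662 to 6437089) and 1.03 ± 0.20 (6469724 to 6476712). The other 3 lay between 0.61 and 0.88 in that table. Another piRNA cluster, flamenco, was measured by a single locus that covers a small part of it (X, 21752533 to 21759063), which stood at 0.40 ± 0.16 with an unadjusted p of 0.0122 and an adjusted p of 0.231 in the authors' deposited table. Both intervals were singled out after their values were seen. Genes for proteins of the piRNA pathway did not pass the test: of 17 tested genes none was called by DESeq2's Wald test, 2 were higher and 2 lower at an unadjusted p under 0.05, and the median was −0.06.

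Of the other unnamed loci called on the arms, all of them higher, 6 lay near the pericentromeric border of the X or at a chromosome end and 2 lay within 3L. On the X 22402893 to 22404047 rose by 1.89 ± 0.30 in the authors' deposited table, within 1 Mb of the pericentromeric border, and 22386268 to 22386990 by 1.23 ± 0.27 in the same table. Beyond the outermost named locus of a chromosome end, 10 loci were tested and 5 of them were higher, against 3.04% of all tested loci. These were 53498 to 55183 and 111745 to 113981 on the X at 1.45 ± 0.30 and 0.80 ± 0.25, 25262494 to 25264238 and 25280996 to 25283418 on 2R at 0.78 ± 0.23 and 0.89 ± 0.22, and 1278677 to 1296532 on chromosome 4 at 1.16 ± 0.17, in the authors' deposited table. The only such locus on 2L stood at −0.44 ± 0.30 and was not called in that table, and no such locus was measured on 3L and 3R. The other called locus of chromosome 4, at 206764 to 208117, rose by 1.30 ± 0.30 in that table. On 3L the locus at 19477329 to 19488439, which spans brv1 and the hairpin RNA genes hpRNA:CR32207 and hpRNA:CR33940, rose by 0.71 ± 0.22, and the locus at 20322377 to 20347942, which spans Rbbp5 and Spn77Bc, by 0.62 ± 0.14 in the authors' deposited table. The chromosome ends were looked at after their values were seen, and telomeric and subtelomeric repeats lie there in flies.

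Named loci of the arms that rose were mostly long genes with small changes. Of the 50 called higher, 45 had a log2 fold change under 1, their median length was 27315 bases and their median change 0.54, whereas the 17 called lower had a median length of 2657 bases and a median change of −0.84. The 7133 named arm loci tested had a median length of 4142 bases. By quartile of length, with limits at 2007, 4142 and 10380 bases, 5, 2, 6 and 37 loci were higher, each out of about 1783. Longer loci also had higher mean counts, and within the top quartile of mean count the higher loci were 0 of 194, 1 of 178, 2 of 361 and 34 of 1004 from the shortest quartile to the longest. The 1004 had a median of 0.07, against −0.01 for all tested loci, and 733 of them were above 0. The part that length, level and the number of overlapping genes play in these calls was not tested beyond these counts.

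In order of size, called rises of named arm loci below the largest ones began with pyd, a scaffold protein of cell junctions, at 0.70 ± 0.13, CARPB at 0.69 ± 0.14, CG43366 at 0.67 ± 0.12 and the homeobox gene OdsH at 0.63 ± 0.14 in the authors' deposited table. They were followed there by CG1504 at 0.61, the transglutaminase gene Tg at 0.60, the adenylyl cyclase gene Ac78C, CG14190 and the immunoglobulin gene beat-Vb at 0.58 each, and CG3726 and CG43861 at 0.56 each. The cadherin gene CadN2, the ionotropic receptor gene Ir93a and the adenylyl cyclase gene rut stood at 0.55 each in the authors' deposited table. The remaining ones lay between 0.36 and 0.53 in that table, from CG34347 down to ome, and included the cGMP-dependent protein kinase gene for at 0.47 and the polarity gene baz at 0.43. Of 22 tested synaptic and neuronal markers 1 was called higher (3.04% of all tested loci were), Snap25, which is pericentromeric. Of the 22, 18 were above 0 and their median was 0.11. These markers are long and of high level, with a median mean count of 2377. Named arm loci in the top quartiles of length and level had 733 of 1004 above 0, with a median of 0.07.

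The largest rise of a named locus of the arms was that of CG43291. This gene (3R, 14236534 to 14244677) rose by 1.86 ± 0.19 with an adjusted p of 3.6e-21 in the authors' deposited table. The male germline gene tut, whose protein acts with Bam to end proliferation of spermatogonia, rose by 1.55 ± 0.30 at a mean count of 13.8 in that table. It was the 1 of 14 tested germline and testis genes that was called, where 3.04% of all tested loci were higher. Among loci holding genes of antimicrobial peptides, those that rose in the authors' deposited table were DptB with CG43109 by 1.22 ± 0.30 and CG4744 with AttC by 1.09 ± 0.30, and reads of the paired genes cannot be told apart. Of the 17 tested immune genes DptB alone was called, beside the same 3.04% over all tested loci. CG13947 stood at 1.09 ± 0.24, the cytochrome P450 gene Cyp309a2 at 0.88 ± 0.17 and lncRNA:CR43807 at 0.86 ± 0.20 in that table. SPoCk, a calcium pump of the secretory pathway, at 0.93 ± 0.14, and plh, at 0.79 ± 0.13, were both called in the authors' deposited table and both lie within 1 Mb of a pericentromeric border, on 3L and 3R. The calls of lncRNA:CR43144 at 0.76 and the cuticle gene Lcp1 at 0.84 in that table rested on mean counts of 2.90 and 5.25 and are lost when p-values are adjusted over all loci.

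**Figure D5:**
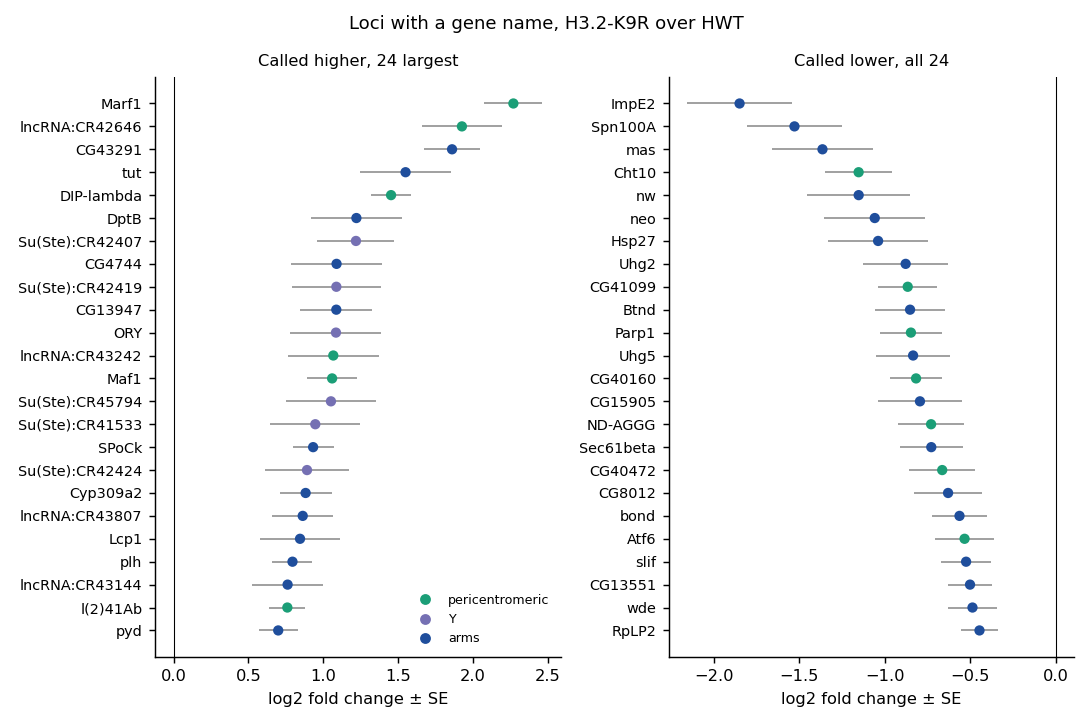
Log2 fold change of H3.2-K9R over HWT of called loci with a gene name outside the histone array, the 24 largest rises at the left and all 24 falls at the right; points are coloured by location and bars are the authors' standard error. Marf1 at 2.27 leads the rises and ImpE2 at −1.85 the falls.

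The largest fall on the arms was that of ImpE2. This gene, induced by the moulting hormone ecdysone (3L, 3510974 to 3512681), fell by 1.85 ± 0.31 with an adjusted p of 1.4e-07 in the authors' deposited table. In the list of apical extracellular matrix genes and moult proteases 4 of 34 tested members were lower, where 0.505% of all tested loci were, and none was higher, with a median of −0.06 against −0.01 over all. These were the protease homologue mas at −1.37 ± 0.29 (mean count 15.2), nw at −1.15 ± 0.30 (mean count 81.1), the zona pellucida domain gene neo at −1.06 ± 0.29 (mean count 15.3) and the pericentromeric Cht10, in the authors' deposited table, and the list was chosen with earlier results known. At an unadjusted p under 0.05 7 of them were lower and none higher. The serpin Spn100A fell by 1.53 ± 0.28 at a mean count of 9.97 in that table. Of 24 tested genes of the ecdysone response ImpE2 was lower and Eip63E higher, at 0.40 ± 0.13 in the authors' deposited table with a call that is lost when p-values are adjusted over all loci. Of 8 tested genes of ecdysteroid synthesis nvd was called. The gene spok, which lies beside Pzl and was chosen after its value was seen, stood at 0.62 ± 0.25 in that table with an adjusted p of 0.268. Of 39 tested larval cuticle proteins Lcp1, which was higher, was the one called. Over all tested loci 3.04% were higher and 0.505% lower.

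Host genes of small nucleolar RNAs fell in the authors' deposited table, Uhg2 by 0.88 ± 0.25 and Uhg5 by 0.84 ± 0.22, and another one measured, Uhg3, which was chosen after its value was seen, stood at −0.15 ± 0.26 and was not called. Sec61beta, a subunit of the protein translocation channel that lies close to Uhg5 on 2R, fell by 0.73 ± 0.18, and RpLP2, a stalk protein of the large ribosomal subunit, by 0.45 ± 0.11 in that table. RpLP2 was the only one of 58 tested cytoplasmic ribosomal protein genes called, where 0.505% of all tested loci were lower. Of the 58, 50 were below 0, with a median of −0.07. The small heat shock gene Hsp27 fell by 1.04 ± 0.29 in the authors' deposited table and was 1 of 4 tested small heat shock genes, all of them below 0. The 17 tested Hsp70 copies and large chaperones had a median of −0.39 and none was called by DESeq2's Wald test, 3 being lower and none higher at an unadjusted p under 0.05. Hsp70 copies are similar in sequence and may share reads. The other falls called on the arms in that table were those of Btnd, a biotinidase, at −0.85, CG15905 at −0.80 on a mean count of 3.97, CG8012 at −0.63, the fatty acid elongase bond at −0.56, the amino acid transporter slif at −0.53, CG13551 at −0.50 and wde at −0.49. The call of CG8012 is lost when values are centred on the median or p-values adjusted over all loci.

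Genes of the lysine 9 methylation machinery held 1 call. Of 17 tested genes for the enzymes and binding proteins of this mark, wde, the partner of the methyltransferase Eggless, was the one called, at −0.49 ± 0.14 with an adjusted p of 0.0175 in the authors' deposited table, and the median was −0.05. Over all tested loci 3.04% were higher and 0.505% lower. The methyltransferase genes egg at 0.13 ± 0.22 and G9a at 0.11 ± 0.12 in the authors' deposited table, chosen after their values were seen, were not called. Of 13 tested genes of histone variants, chaperones and histone mRNA processing none was called by DESeq2's Wald test or passed an unadjusted p under 0.05, and His3.3B, which encodes H3.3 and is a gene of the design, stood at 0.02 ± 0.09 in the authors' deposited table. At the reference copies of the histone genes on 2L, a cluster that both genotypes lack, all 15 measured His3 copies were called lower, at −1.01 to −0.75 in the authors' deposited table, and the other classes were not called, with medians of −0.35 for His2A, −0.28 for His2B, −0.25 for His4 and 0.21 for the linker histone His1. The copies are nearly identical and may share reads, the codon change lies in His3, and the RNA level does not test the genotype.

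Lists of larval tissues and of general stress held few calls. None of the tested genes was called by DESeq2's Wald test among 27 midgut enzymes, 17 muscle, 9 fat body, 13 hemocyte, 9 tracheal and 3 salivary gland markers, 24 DNA replication genes, 19 genes of DNA damage and apoptosis, 31 of oxidative stress and detoxification, 26 nuclear genes of the respiratory chain and 5 of dosage compensation. At an unadjusted p under 0.05 these lists had 1 higher each in muscle, fat body and DNA damage, and 2 lower in midgut, 4 in oxidative stress, 1 in DNA replication and 1 in the respiratory chain. Their medians ran between −0.21 in DNA replication, where 21 of 24 genes were below 0, and 0.07 in the salivary gland. Among named loci of all locations, 9 of 169 tested long noncoding RNAs were higher and 2 lower (median 0.10), against 60 and 37 of 7249 protein-coding genes (median −0.02). The 169 include the 25 Su(Ste) copies of the Y, which may share reads and make up 5 of the 9 rises. Also among the 9 are the pericentromeric lncRNA:CR42646 and lncRNA:CR43242. The 37 falls of protein-coding genes include the 15 His3 copies of the reference histone cluster, which may also share reads. The kind of gene was not compared within a location.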

How the data were processed

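Per the labels, total RNA of whole larvae went into NuGEN Ovation libraries. The submitters' processing notes list DESeq2, MACS2, TopHat2 2.1.1, Bowtie2 2.3.2, Cufflinks 2.1.1, bedtools 2.2.25.0 and SAMtools 1.5, with build dm6. The sources used here do not give the step each served, how reads were counted, how reads mapping to several places were treated, or the annotation of the loci. Per the file headers, the authors' table gives for each locus a mean signal, never negative, of counts scaled by size factors. Per the file headers it also gives a log2 fold change, and as scores its standard error and the Wald statistic. Each p-value and its Benjamini-Hochberg adjustment are the authors' own, as deposited. The mean is the same in the 3 RNA tables of the series, so it covers libraries they share. Standard errors reach at most 0.306, as when fold changes are shrunk towards 0, so those of low loci may be understated. Depth per library is unknown.

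Nothing was refitted. The 181 missing p-values and 2130 missing adjusted p-values stayed missing. Starts, counted from 0 in the file, were made 1-based. Gene names were taken from RefSeq's table for Release 6, which is the dm6 assembly; 9567 loci were named, 3361 hold 2 or more genes, and strand was not used, so reads of overlapping genes cannot be told apart. Pericentromeric sequence was, by locus centre, 2L beyond 22 Mb, X and 3L beyond 23 Mb, 2R up to 5.4 Mb and 3R up to 4.6 Mb. Tables were made with Python 3.11.15, pandas 2.3.3, numpy 2.4.6 and scipy 1.17.1, and the counting of calls was tested on simulated data. Named genes are called loci outside the histone array with a gene name, the 5 called loci of largest change in each location, and called members of 28 gene lists; other genes given with values, among them kl-2, Ppr-Y, FDY and His3.3B, were chosen after their values were seen. Members and lists were chosen with earlier results of these data known. Lists were described by counts and medians, with no set test. Alternatives were another threshold, a minimum fold, adjustment over all loci, a minimum mean count of 10, centring on the median, and leaving out the histone array or heterochromatic sequence. The 6 other comparison tables of the series, and promoter and protein sequences, were not used here.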

Additional observations from a re-analysis of the deposited data

How the results depend on the processing

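No paired analysis was possible because no column holds values of a single library, and leaving out a replicate was not run for the same reason. Under the alternatives, 95 recomputed counts stayed within 1.5 times their value and 17 moved further. These numbers include alternatives chosen after seeing the data, and some moves follow from the loci that were left out. At an adjusted p under 0.01 the counts were 22 lower in all, 8 higher on the Y, 9 lower on the arms and 7 lower in the histone array, and at 0.1 the arms had 28 lower. With an absolute log2 fold change of at least 1, 162 loci were called, 153 higher and 9 lower, with 11 higher and 6 lower on the arms, 2 lower in pericentromeric sequence and 1 lower in the array. Without the histone array, whose 15 called loci were left out with it, 24 loci were lower. Without scaffolds, the Y and pericentromeric sequence 73 loci were called, 50 higher and 23 lower: with p-values adjusted again over the smaller set, 48 rises and 13 falls on the arms, 2 rises on chromosome 4 and 10 falls in the array were called. An alternative chosen after seeing the data left out the Y and the scaffolds assigned to it, and 36 scaffold loci were higher. Another chosen after seeing the data left out the loci matched to Pzl, and 227 loci were higher, 72 of them in pericentromeric sequence. Adjusted over all loci with a p-value, 268 loci were called, all among the 288, and 83 of 93 named genes kept their call. With a mean count of at least 10, 278 of the 280 called loci were among the 288, and centred on the median 286 of 289 were, with a shift of −0.01. Name matches at 20% of the joint span gave 2 Y genes higher in place of 1, and at 80% no small heat shock gene lower and no immune gene higher. Depth per library could not be weighed.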
